A study of Sus scrofa with 18 samples.

Results

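The comparison described here is between 3 libraries of normal pig tissue labelled mouth and 3 labelled nose, all from wild-type (WT) pigs. The libraries were chosen by their titles alone, 6 of the 18 in the series. Of 27339 genes in the deposited table, 11442 passed a filter on low counts and were tested. The other 12 libraries, WT tissue labelled scrotum and tumours of a modified pig line named DIK at the same 3 labels, serve only as background. WT and DIK pigs were given doxycycline at 7 months of age, which switches on the transgenes in the DIK line, and tissue was taken 8 months after induction. So the WT animals carried no transgene but received the drug. The tumours all came from 1 DIK founder, and the labels do not say how many WT animals stand behind the 6 libraries. P-values therefore measure only the spread between these libraries, which may be technical.

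Nose and mouth of a pig hold several tissues side by side: skin or mucosa, glands, cartilage or bone and the striated muscle that moves the snout, lips and tongue. Cells also keep a record of where along the body they arose. HOX genes are switched on in an ordered series from the hindbrain towards the tail, and the posterior paralogue groups are normally silent in tissue of the head, while factors such as ALX1, MSX1 and TBX1 pattern the face and its muscles. Striated muscle contracts through sarcomeres of titin, nebulin, fast or slow myosins and troponins. Smooth muscle has no sarcomeres and uses its own myosin, calponin and transgelin under the cofactor myocardin.

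The library totals ranged from 3317346 to 4790537 counts in the mouth-labelled group. They were 418665, 2738124 and 5041470 in nose replicates 1, 2 and 3. Levels are given as CPM, a gene's counts scaled to a common library total, after TMM scaling of the 6 libraries, listed for mouth replicates 1 to 3 and then nose replicates 1 to 3. A count of 3, the floor used for a gene at 0, was worth 6.65 CPM in nose replicate 1 and between 0.566 and 1.26 CPM in the other 5, so a 0 in nose replicate 1 says little. Mouth replicate 1 stood apart from the other 2: its log CPM correlated with theirs at 0.883 and 0.845 across genes, against 0.955 between replicates 2 and 3, and with the nose libraries at 0.686 to 0.752. Nose replicate 1, the shallowest, correlated with nose replicates 2 and 3 at 0.871 and 0.878, against 0.946 between those 2. Results that rest on mouth replicate 1 or nose replicate 1 are given with and without it.

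Of the 11442 genes tested, 2348 (20.5%) differed between the mouth-labelled and the nose-labelled libraries by edgeR's quasi-likelihood test at an adjusted p under 0.05. Of these, 1199 were higher in the mouth-labelled libraries (10.5% of those tested) and 1149 were lower (10%). Most differences were large, since 2202 of the called genes differed at least 2-fold. Beyond 5 on the log2 scale there were 49 higher and 192 lower genes. The log2 difference had a median of 0.06 over all tested genes. The split depended on the scaling: 51.1% of calls were higher under TMM and 71.5% with library size alone (2088 higher and 832 lower), which moved the median of all genes to 0.39. Upper-quartile scaling moved it to 0.12. Without mouth replicate 1 the same test called 1756 higher and 2144 lower. Of the calls with all 6 libraries, 1185 of the 1199 higher and 1135 of the 1149 lower genes were called in the same direction without it. Without mouth replicate 2 there were 687 higher calls and without nose replicate 2 there were 694, and without nose replicate 3 there were 692 higher and 724 lower calls.

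**Figure D1:**
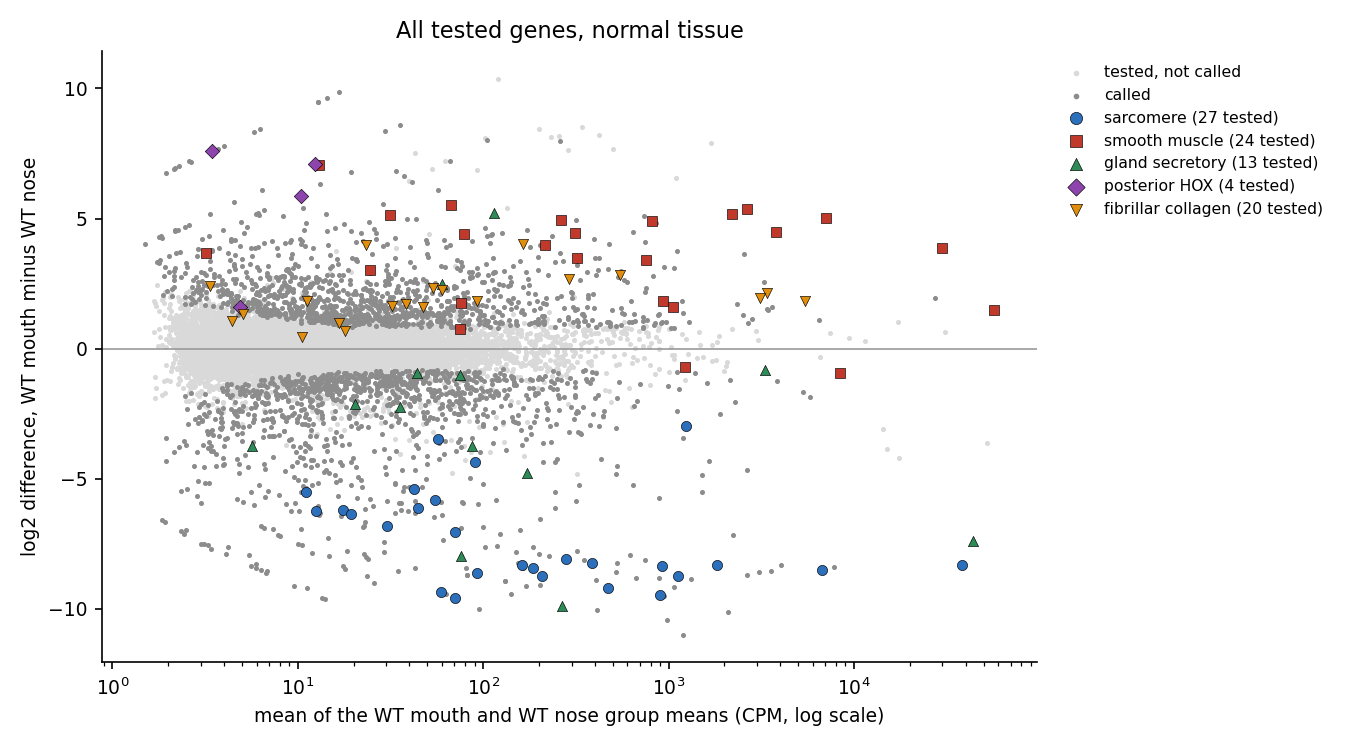
Log2 difference between the mouth-labelled and nose-labelled WT libraries (vertical axis) against the mean of the 2 group means in CPM (horizontal axis, log scale) for the 11442 tested genes. Called genes are dark grey, and tested members of 5 gene lists are coloured: all 27 sarcomere genes lie below 0 and 20 of 24 smooth muscle genes were called higher.

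The first question is whether positional genes bear out the labels. Posterior HOX genes were present in the mouth-labelled libraries and nearly absent from the nose-labelled ones. Their summed level was 49.4, 77.7 and 75.2 CPM in the mouth-labelled libraries and 2.22, 2.11 and 4.02 CPM in the nose-labelled libraries. No library of one group reached the range of the other. These values go against the mouth label, because the posterior groups are normally silent in the head, and the groups are kept here as labelled. The list has 16 genes, of which 15 were in the table, 4 had no count in the 6 libraries and 4 passed the filter. Most of these 4 passed only through the libraries where they were high, so the count of 4 called higher is a description (median log2 difference 6.48, or 4.93 with genes at 0 set to their bound).

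HOXA10, a posterior gene of limb, trunk and urogenital patterning, had 17.3, 29.1 and 27.4 CPM in the mouth-labelled libraries. In the nose-labelled libraries it had 0, 0 and 0.251 CPM, a total of 1 count against 337. The ratio was 164.8 with an exact 95% counting interval of 29.4 to 6529.6 (edgeR adjusted p 3.01e-05). HOXA9 had 6.98, 7.47 and 6.19 CPM against 0 in all 3 nose libraries, at least 15.8-fold higher against 3 counts over the group (edgeR adjusted p 0.000852). HOXC9 had 14.7, 22.4 and 22.7 CPM in the mouth-labelled libraries. It had 2 counts in the nose-labelled libraries, a ratio of 66.5 (interval 18.2 to 552.1, edgeR adjusted p 0.000184). Counting intervals and floors cover counting error only. HOXC10 and HOXC11, too low to be tested, had 26 and 55 counts in the mouth-labelled libraries and 0 in the others. HOXD9 had 6.03, 10.2 and 7.37 CPM against 0, 2.11 and 3.52 CPM. Its difference of 1.59 ± 0.51 (SE, log2; adjusted p 0.0493) was called in 1 of 6 fits that each left out a library, the one without mouth replicate 1. It was 2.22 without nose replicate 3 (adjusted p 0.0729) and had adjusted p-values of 0.0682 to 0.181 without mouth replicate 2 or 3 or nose replicate 1 or 2.

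Genes of the front and middle of the HOX series were summed in the same way, at 40.7, 41.5 and 36.9 CPM in the mouth-labelled libraries and 4.43, 7.16 and 6.03 CPM in the nose-labelled ones. Of 23 listed genes 21 were in the table and 5 were tested, 4 of them called higher (median 4.26, or 3.98 with bounds). Those 4 passed the filter only through the mouth-labelled libraries, where they were high, so this count too is a description. HOXC8 had 6.41, 8.23 and 7.67 CPM against 0 in the nose libraries, at least 16.8-fold higher (adjusted p 0.000763). HOXA7 had 8.67, 4.98 and 7.37 CPM against 0, at least 15.8-fold higher (adjusted p 0.00125). HOXC4 had 48 counts against 1. Its call was kept in 5 of 6 leave-one-out fits, and that of HOXA5, with 59 counts against 3, in 3 of 6. HOXD8 was not called, with 3.02, 3.64 and 4.42 CPM against 2.22, 2.95 and 4.02 CPM and overlapping groups (0.11 ± 0.44, adjusted p 0.974). So HOXD8 and HOXD9 of the D cluster were measured at both labels, while each called gene of the A and C clusters had at most 3 counts over the nose group.

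Head and face factors moved mostly the other way. Of 32 listed and 14 tested, 7 were called lower and 3 higher (median -1.88), against 10% and 10.5% of all tested genes. With mouth replicate 1 left out, 9 of 16 were lower and 3 higher (median -3.70). The list's summed level was 174.9, 81.0 and 66.6 CPM in the mouth-labelled libraries and 166.2, 228.2 and 195.6 CPM in the nose-labelled ones. Mouth replicate 1 lay within the nose range, but through 1 gene. TFAP2B held 663 of the list's 928 counts in that library. It had 7 and 1 counts in mouth replicates 2 and 3, and 17, 119 and 129 in the nose-labelled libraries. ALX1, a factor of the upper face and nose, was at 0 in the mouth-labelled libraries against 8.86, 17.3 and 11.8 CPM, at least 62.7-fold lower (adjusted p 0.000133). MSX1, a homeobox factor of jaw and tooth mesenchyme, had 0.189, 0.383 and 0.295 CPM in the mouth-labelled libraries and 4.43, 10.1 and 6.28 CPM in the nose-labelled ones (-4.54 ± 0.58, adjusted p 0.00035). TBX1, a factor of the pharyngeal arches, had 4.52, 2.30 and 1.77 CPM against 15.5, 16.0 and 20.8 CPM (-2.59 ± 0.40, adjusted p 0.00113). For ALX1, MSX1 and TBX1 the groups did not overlap. DLX5, a jaw-patterning gene too low to test, had 14 counts in the nose-labelled libraries and 0 in the mouth-labelled ones. HAND2 and GSC, which also act outside the face, were among the 3 that were higher. HAND2 had 3.02, 8.42 and 11.8 CPM in the mouth-labelled libraries. Its 2 counts at the nose label were both in replicate 3, against 100 at the mouth label, a ratio of 24.5 (interval 6.6 to 204.7, edgeR adjusted p 0.00498). GSC had 2.26, 5.36 and 5.31 CPM against 0, at least 9.46-fold higher (adjusted p 0.00609).

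Among limb and trunk factors 14 of 26 were tested, 9 called higher and 3 lower (median 1.88), against 10.5% and 10% of all tested genes. Leaving out 1 library gave 6 to 11 higher and 2 to 3 lower calls. TWIST1, TWIST2 and MEIS3, among the higher genes, passed the filter only through the mouth-labelled libraries, so the count of higher genes is a description. MEIS1, a partner of HOX proteins on DNA, had 93.1, 144.5 and 158.0 CPM against 26.6, 9.26 and 16.6 CPM (3.04 ± 0.40, adjusted p 0.000413). NR2F2, a nuclear receptor of mesenchyme and veins, was higher by 1.56 ± 0.26. TBX3 (-2.97 ± 0.30) and TBX15 (-2.28 ± 0.31) were lower. The hindlimb factor TBX4 had no count in any of the 6 libraries. PITX1, a hindlimb factor that is also active in the jaw and mouth, had 0 counts at the mouth label and 8 at the nose label.

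Genes of the male reproductive tract were part of the check. RXFP2, the receptor for INSL3 in the ligament that guides the testis, had 13.4, 37.7 and 35.1 CPM in the mouth-labelled libraries and no count in the nose-labelled ones. It was at least 63.1-fold higher (edgeR adjusted p 0.000534). Of 16 genes of testis and epididymis, 12 had no count in the 6 libraries, and the germ cell helicase DDX4 was among them. The other 4 were STAR, CYP11A1, AMH and HSD3B1, of which HSD3B1, a steroid-converting enzyme, was the one high enough to test. It had 18.7, 1.15 and 0.295 CPM against 44.3, 48.0 and 34.2 CPM and was not called (-2.59 ± 1.27, adjusted p 0.241), or was called at -5.64 without mouth replicate 1 (adjusted p 2.95e-07). The mesothelium list had no tested gene.

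In the 18-library scaling the posterior HOX sum averaged 59.9 ± 15.5 CPM (SD, n = 3) in WT mouth-labelled tissue and 2.39 ± 0.894 CPM at the nose label. WT tissue labelled scrotum had 4.71 ± 1.63 CPM, so within WT the list was high at the mouth label and not at the scrotum label. DIK tumours also had the highest sum at the mouth label, with 16.9 ± 4.60 CPM at the mouth label, 5.14 ± 1.66 at the nose label and 2.92 ± 1.99 at the scrotum label. HOXA10 had 37 counts in the DIK mouth-labelled tumours and 0 in both other tumour groups. MSX1 had 10 counts in DIK mouth-labelled tumours against 55 at the nose label, and ALX1 had 0 against 14.

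**Figure D2:**
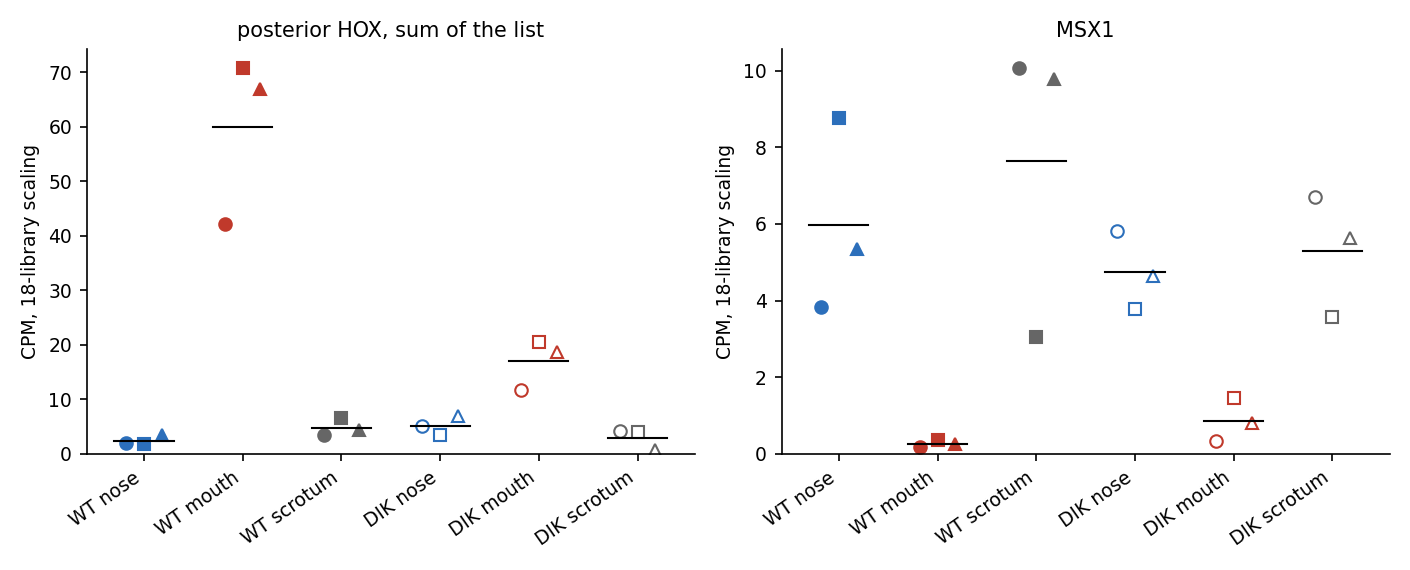
Summed posterior HOX level (left, linear axis) and MSX1 level (right, linear axis) in each of the 18 libraries, in CPM after 18-library scaling. Filled points are WT, open points DIK, markers are replicates 1 (circle), 2 (square) and 3 (triangle), and lines are group means: the HOX sum is highest and MSX1 lowest at the mouth label in both genotypes.

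Mouth-minus-nose differences were then compared between genotypes in a fit of the 12 mouth and nose libraries. In the tumours 399 of 12510 genes (3.19%) differed between labels. The difference between labels itself differed between DIK and WT for 1560 of 12510 genes (12.5%), and without WT mouth replicate 1 for 2838. MSX1 was lower at the mouth label in the tumours too (-2.38 ± 0.52, SE, log2; edgeR adjusted p 0.0165; DIK minus WT 2.13 ± 0.86, adjusted p 0.116). That call was lost without DIK mouth replicate 1 or 3 or DIK nose replicate 1 or 3 (adjusted p 0.0565 to 0.0967). Of 4 posterior HOX genes tested, HOXA9 and HOXA10 were called higher at the mouth label in the tumours (edgeR adjusted p 0.00417 and 0.00228). Both had 0 counts in the DIK nose libraries, so these calls are a description. Leaving out 1 DIK library gave 2 or 3 posterior calls. Of 5 anterior and central HOX genes HOXA7 and HOXC8 were called higher, and leaving out 1 DIK library gave 0 or 1 call. For HOXC9 the DIK difference was 2.73 ± 0.79 (adjusted p 0.0874; DIK minus WT -3.19 ± 1.53, adjusted p 0.197), and without DIK nose replicate 3 it was called at 4.91 (adjusted p 0.0254). A p above the threshold does not show that the 2 genotypes were alike. Other positional genes did differ: the TBX3 difference was 0.52 ± 0.28 in DIK (DIK minus WT 3.45 ± 0.41, adjusted p 5.1e-05) and that of MEIS1 0.49 ± 0.31 (DIK minus WT -2.63 ± 0.45, adjusted p 0.00116).

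Of all the gene lists, the fast fibre and sarcomere lists of skeletal muscle had the largest median log2 differences. All 27 sarcomere genes tested, of 28 listed, were lower in the mouth-labelled libraries, with a median log2 difference of -8.26 against 0.06 over all genes. Their summed level was 328.7, 717.5 and 790.4 CPM in the mouth-labelled libraries and 89028.8, 100053.3 and 128150.4 CPM in the nose-labelled ones. In bulk tissue fewer cells of a type and less RNA per cell cannot be told apart, here and in each cell type result. TTN encodes titin, the spring of the sarcomere. It had 23.4, 43.5 and 44.5 CPM against 16531, 10080 and 13669 CPM (-8.50 ± 0.44, edgeR adjusted p 1.16e-06). ACTA1, skeletal actin, had 162.5, 275.8 and 271.2 CPM against 53920, 78230 and 95570 CPM (-8.33 ± 0.42). Its reads may be shared with the other actins, which are near-identical. NEB, the thin filament ruler nebulin, was lower by the same order (-8.73 ± 0.47).

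Fast and slow fibre genes were both lower. All 11 fast fibre genes tested, of 12 listed, were called lower (median -8.59). MYH4, a fast myosin heavy chain, had 2.83, 2.68 and 2.06 CPM against 1230, 914.0 and 3494 CPM (-9.51 ± 0.67, or -8.68 without nose replicate 3). ATP2A1, the fast fibre calcium pump, had 0.377, 0.191 and 0.590 CPM against 345.6, 229.9 and 268.7 CPM (-9.45 ± 0.45). Among 10 slow fibre genes, all tested, 8 were lower, 1 was higher and CASQ2 was not called (1.45 ± 0.75, or called at 1.82 without mouth replicate 1). MYH7, the slow myosin, had 1.70, 4.21 and 4.42 CPM against 1108, 725.0 and 1308 CPM (-8.25 ± 0.50). PLN, which restrains the calcium pump ATP2A2 and is also made by smooth muscle, was the one that rose, with 36.2, 106.6 and 107.3 CPM against 4.43, 2.53 and 2.26 CPM (4.98 ± 0.53).

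The machinery that couples nerve impulse to contraction was reduced in the same libraries. Of 14 tested genes of excitation-contraction coupling, of 15 listed, 13 were called lower (median -7.00) and CACNA2D1 was not. SLN, the pump regulator sarcolipin, had 2.83, 4.59 and 3.54 CPM against 1812, 1835 and 2729 CPM (-9.17 ± 0.42). RYR1, the calcium release channel of the sarcoplasmic reticulum, was lower by 6.25 ± 0.45 on the log2 scale. At the neuromuscular junction 2 of 5 tested genes were lower, CHRNA1 and CHRNB1, which encode acetylcholine receptor subunits. CHRNA1 (-6.32 ± 1.25) lost its call without any 1 of the mouth-labelled libraries (adjusted p 0.0729 to 0.0815) and was -4.62 without nose replicate 3. CHRNB1 (-1.10 ± 0.30) kept its call in the fits without mouth replicate 1 or nose replicate 1, and had adjusted p-values of 0.0943 to 0.123 in the other 4. Without nose replicate 1, 4 of 7 junction genes were called lower. Among myogenic factors 2 of 6 tested were lower: MYF6 had 0.377, 0.957 and 0 CPM against 367.8, 284.2 and 134.6 CPM (-8.95 ± 0.71, or -9.94 without mouth replicate 2), and SIX4 differed by -3.60 ± 0.67 (-4.36 without mouth replicate 1). Without mouth replicate 1, 4 of 8 myogenic factors were lower and 1 was higher. PAX7, the satellite cell factor, was too low to test, with 0 counts in the mouth-labelled libraries and 27 in the nose-labelled ones.

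Genes of energy metabolism were lower too, with smaller medians than the sarcomere list. Of 20 genes of muscle glycolysis and energy transfer, 19 were called lower (median -3.59) and PHKA1 was not called (-1.10, or called at -1.19 without mouth replicate 1). PGAM2, the muscle phosphoglycerate mutase, had 4.15, 6.51 and 4.13 CPM against 1119, 1114 and 1461 CPM (-7.95 ± 0.38). PFKM, the muscle phosphofructokinase, had 25.6, 43.5 and 30.1 CPM against 1551, 1086 and 1105 CPM (-5.23 ± 0.35). CKM, the muscle creatine kinase, had a far smaller difference of -1.88 ± 0.40, with 1080, 3358 and 3016 CPM against 8077, 8733 and 10549 CPM, and did not overlap between groups. All 18 nuclear genes of the respiratory chain that were tested, of 30 listed, were lower (median -1.97). They ranged up to COX7A1, a muscle isoform of a cytochrome oxidase subunit (-4.35 ± 0.29), with SDHA of complex II at -2.25 ± 0.27. Of 20 tested genes of fatty acid oxidation, of 22 listed, 16 were lower (median -1.96), among them FABP3, a fatty acid carrier of muscle (-4.96 ± 0.49), and ESRRG, a nuclear receptor of oxidative fibres (-3.94 ± 0.30). Without mouth replicate 1 all 20 were called.

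**Figure D3:**
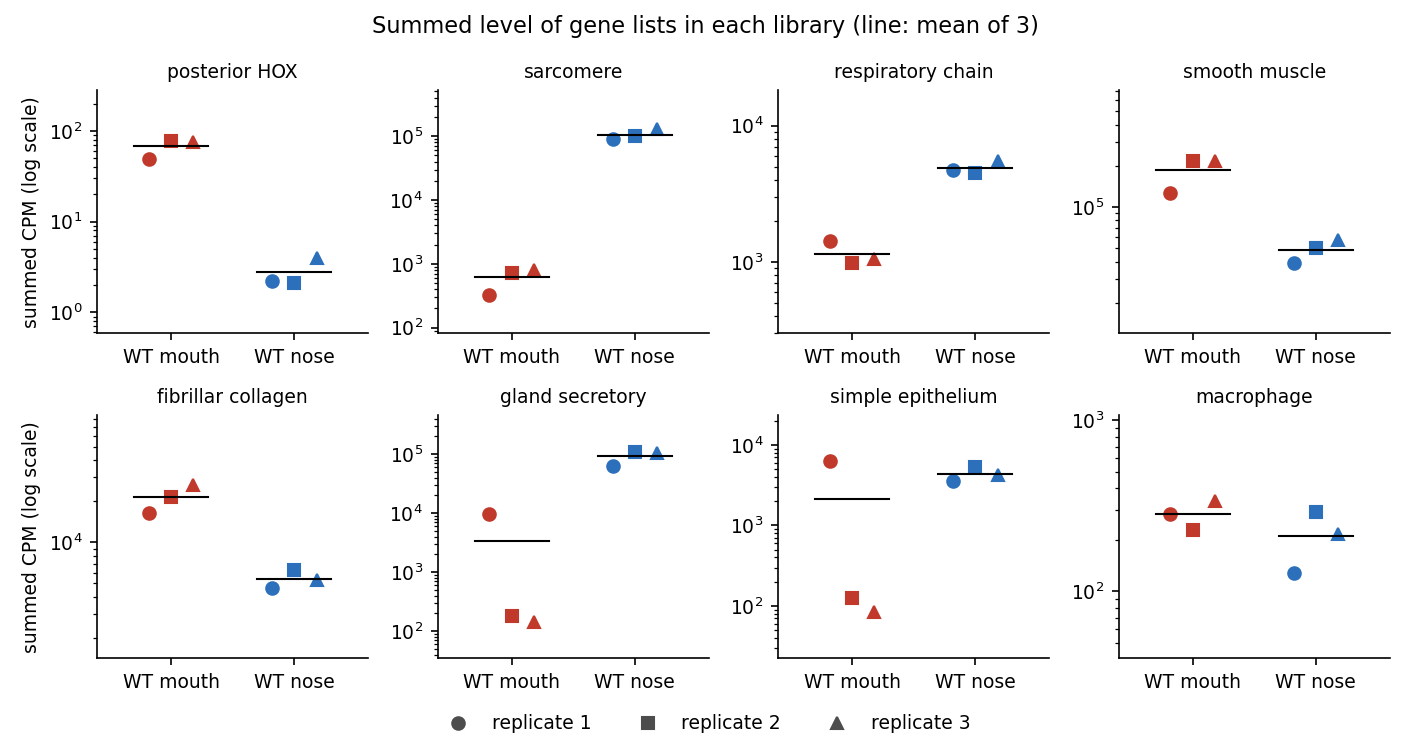
Summed level of 8 gene lists in each of the 6 WT libraries, in CPM on a log scale, with a line at the mean of 3. The sarcomere and respiratory chain sums are lower and the smooth muscle and collagen sums higher in all 3 mouth-labelled libraries, while gland and simple epithelium sums are split between mouth replicate 1 and the other 2.

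Smooth muscle genes were higher in the mouth-labelled libraries. Of 24 listed, all tested, 20 were called higher and 1 lower, with a median log2 difference of 3.92. Their summed level was 125715.3, 216866.2 and 215588.6 CPM against 39081.2, 50123.1 and 57003.1 CPM. MYOCD is myocardin, the cofactor that switches on the smooth muscle programme. It had 10.9, 29.1 and 35.7 CPM in the mouth-labelled libraries against 2.22, 0 and 0 CPM, or 331 counts against 1 (ratio 161.9, interval 28.9 to 6413.7, edgeR adjusted p 0.000985). MYL9, the smooth muscle regulatory light chain, had 3175, 6551 and 5717 CPM against 115.2, 127.1 and 129.3 CPM (5.37 ± 0.37). TAGLN, transgelin, had 8836, 17619 and 14801 CPM against 505.1, 361.6 and 405.8 CPM (5.02 ± 0.36). Mouth replicate 1 was the lowest of its group for each of these 3 genes and still above every nose-labelled library.

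Transcripts of the contractile proteins rose as well. MYH11, the smooth muscle myosin heavy chain, had 4228, 9083 and 8436 CPM against 403.2, 351.5 and 225.5 CPM (4.47 ± 0.40). CNN1, calponin, was higher by 5.52 ± 0.50 and MYLK, the kinase that starts smooth muscle contraction, by 5.18 ± 0.47. ACTG2, enteric smooth muscle actin, had 41179, 64947 and 62235 CPM against 3108, 3344 and 4969 CPM (3.88 ± 0.33). ACTA2, the vascular smooth muscle actin, differed less (1.49 ± 0.30) and was abundant at both labels, with 21726 to 34703 CPM in the nose-labelled libraries. The smooth muscle gene called lower was TPM2, a tropomyosin that striated muscle also makes (-0.96 ± 0.30, adjusted p 0.0475). It kept that call without mouth replicate 1 and lost it without any other library (adjusted p 0.0705 to 0.156). HSPB6, SYNPO2 and SYNM were not called, and without mouth replicate 1 SYNPO2 (1.12) and SYNM (1.92) were.

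Signalling to smooth muscle was less uniform. Of 15 genes tested, of 22 listed, 7 were called higher and 1 lower (median 0.85). Leaving out 1 library gave 3 to 7 higher calls, with 3 without mouth replicate 2 or nose replicate 2 and 4 without mouth replicate 3. Without nose replicate 1, too, only 3 were called higher. Those 3 were ADRA1A, the noradrenaline receptor (86.2, 210.8 and 266.5 CPM against 19.9, 16.0 and 22.6 CPM), AGTR1, the angiotensin receptor (2.66 ± 0.39, or 3.41 without nose replicate 3), and PRKG1, the cGMP-dependent kinase of relaxation (3.16 ± 0.52). The ADRA1A difference was 3.26 ± 0.43 (adjusted p 0.000411). P2RX1, the ATP-gated channel of sympathetic transmission to smooth muscle, had 28.3, 106.1 and 79.3 CPM against 0, 0.421 and 0 CPM. That is 973 counts against 1, a ratio of 475.9 with an interval of 85.2 to 18816.6 (edgeR adjusted p 0.000132). CHRM3, the muscarinic receptor of glands and smooth muscle, was the gene called lower (-3.61 ± 0.60, or -4.92 without mouth replicate 1).

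Collagens and other matrix genes rose with the smooth muscle genes. Of 20 collagens tested, of 23 listed, 15 were called higher (median 1.83). The basement membrane collagen COL4A2 had 177.9, 384.8 and 362.6 CPM against 17.7, 17.7 and 21.6 CPM (4.0 ± 0.37). COL1A1, the main fibrillar collagen, had 4112, 5129 and 7327 CPM against 1066, 1463 and 1272 CPM (2.12 ± 0.30). Of 34 matrix and fibroblast genes, all tested, 23 were higher and THBS1 was lower (median 1.55). TNC, tenascin-C of tendon and remodelling tissue, had 167.6, 690.9 and 692.8 CPM against 4.43, 1.26 and 2.01 CPM (7.99 ± 0.74). POSTN, periostin, had 572.1, 800.4 and 851.4 CPM against 70.9, 58.1 and 68.3 CPM (3.50 ± 0.29). LOX, which crosslinks collagen and elastin, was higher by 3.51 ± 0.42. Fibroblast markers without a call included PDGFRA (0.22) and LUM (0.45, both log2 differences).

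ACAN, the large proteoglycan aggrecan of cartilage and tendon, had 773 counts in the mouth-labelled libraries against 1 (ratio 378.1, interval 67.7 to 14952.8). It was the only one of 5 tested cartilage genes that was called, a share near the 20.5% of all tested genes called. Of the WNT and BMP list, 13 of 33 genes were tested, 5 called higher and 2 lower (median 0.94). GREM1, a secreted BMP antagonist, had 19.2, 43.8 and 37.4 CPM against 0 in all nose libraries, at least 74.7-fold higher (edgeR adjusted p 0.000132). CHRDL1, another BMP antagonist, had 216.6, 585.4 and 531.8 CPM against 44.3, 38.3 and 51.0 CPM (3.32 ± 0.40). WNT5B was lower (-2.49 ± 0.45). For all 3, the groups did not overlap, which for GREM1 was required by the rule that named it.

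In the DIK tumours few members of these lists differed between labels. Of 24 smooth muscle genes, 0 were called between DIK mouth and nose by edgeR (1 at an unadjusted p under 0.05), and for 14 the DIK difference was itself different from the WT one. Of 34 matrix and fibroblast genes 3 were higher and 1 lower, and 17 differed from WT. TNC, FMOD, THBS1 and PDGFRA were those 4, and without DIK nose replicate 2 there were 5 calls against 1 without any other DIK mouth or nose library. Of 27 sarcomere genes TTN, NEB, ACTA1 and MYOM2 were lower, and 7 differed from WT. Leaving out 1 DIK library gave 3 to 6 sarcomere calls. Among all genes 3.19% were called in the tumours, and 12.5% differed from WT. TAGLN differed by -0.02 ± 0.33 between DIK mouth and nose (DIK minus WT -5.09 ± 0.49, edgeR adjusted p 9.26e-06) and MYL9 by 0.47 ± 0.33 (DIK minus WT -4.95 ± 0.49, adjusted p 1.07e-05). POSTN differed by -0.98 ± 0.35 (DIK minus WT -4.53 ± 0.50, adjusted p 3.13e-05) and LOX by -0.33 ± 0.45 (DIK minus WT -3.84 ± 0.61, adjusted p 0.000574). Without DIK nose replicate 2, POSTN was called in the tumours (-1.30, adjusted p 0.0161). TNC was higher at the mouth label in the tumours as well, with 75.9, 66.8 and 85.8 CPM in DIK mouth and 8.98, 12.7 and 9.83 CPM in DIK nose in the 18-library scaling (2.85 ± 0.46, adjusted p 0.00295; DIK minus WT -5.22 ± 0.74, adjusted p 0.000319). ACTA1 had 1.27, 1.22 and 3.47 CPM in DIK mouth and 683.1, 4.58 and 886.8 CPM in DIK nose, so nose replicate 2 was far below the other 2. The ACTA1 difference of -8.02 ± 1.59 in the tumours (adjusted p 0.028; DIK minus WT 0.26 ± 1.91, adjusted p 0.967) was called without DIK nose replicate 2 and lost its call without any other DIK library (adjusted p 0.0798 to 0.123). TTN kept its direction in the tumours (-3.36 ± 0.56, adjusted p 0.00316) with a smaller size (DIK minus WT 5.09 ± 0.81, adjusted p 0.00065), at mean levels of 0.826 CPM in DIK mouth and 8.66 CPM in DIK nose in the 18-library scaling.

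**Figure D4:**
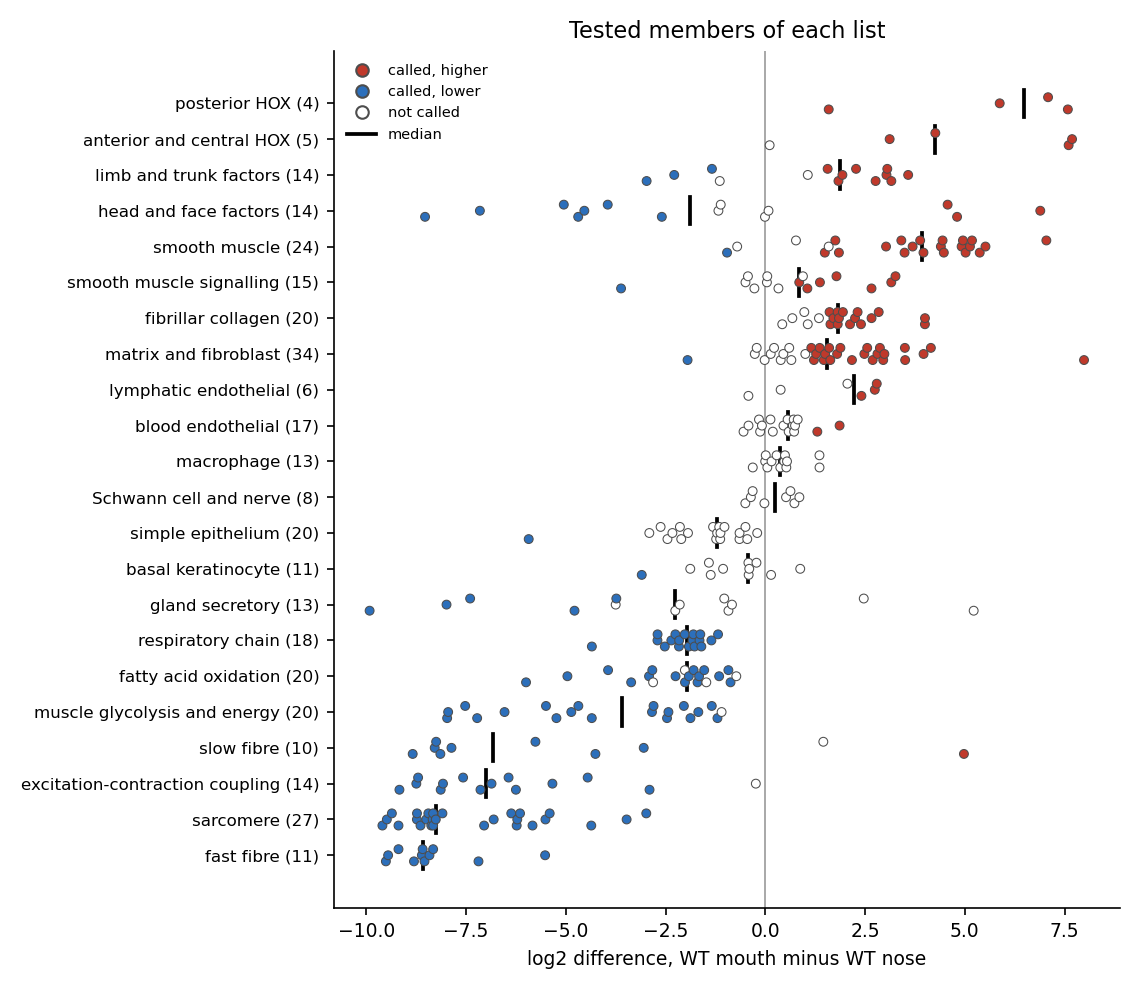
Log2 difference between mouth-labelled and nose-labelled WT libraries (horizontal axis) for each tested member of 22 gene lists, with the number tested in brackets. Red points were called higher, blue lower and white not called, and the black bar is the list's median, from -8.59 for fast fibre genes to 6.48 for posterior HOX genes.

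Gland genes separated the labels in part, and mouth replicate 1 decides how far. Secreted proteins of the nose were present at high level in the nose-labelled libraries. OBP2B, an odorant-binding lipocalin, had 1.13, 0.383 and 2.95 CPM against 1342, 2833 and 1712 CPM (-10.42 ± 0.76, edgeR adjusted p 1.96e-05; -11.23 without mouth replicate 3). OBP, a related lipocalin of nasal mucus, had 2.26, 4.79 and 4.13 CPM against 2184, 6727 and 3567 CPM (-10.12 ± 0.62). Lipocalin genes have near-identical copies, so the split of reads among them is uncertain. AGR2, a folding enzyme of mucous cells, had 0.566, 0.191 and 0.884 CPM against 389.9, 711.9 and 491.7 CPM (-9.92 ± 0.53). WFDC2 (-7.99 ± 0.43), a secreted protease inhibitor, PGLYRP1 (-10.04 ± 0.59), which binds bacterial cell walls, and SLC12A2 (-4.78 ± 0.75, or -6.10 without mouth replicate 1), the chloride carrier of fluid secretion, were lower as well. All 3 mouth-labelled libraries lay below all 3 nose-labelled ones for each of these 6 genes. OBP2B, OBP, AGR2 and PGLYRP1 were named by a rule that required this separation, so for them it is a description.

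Other secretory genes were high in mouth replicate 1 alone of its group. The gland list had 34 genes, 33 in the table and 13 tested, of which 5 were called lower (median -2.26). Its summed level was 9730.7, 179.7 and 145.0 CPM in the mouth-labelled libraries and 62798.9, 109099.1 and 105230.8 CPM in the nose-labelled ones. Without mouth replicate 1, 12 of 14 were called lower (median -6.79). SAL1, salivary lipocalin, had 1369, 63.8 and 109.1 CPM against 58957, 102052 and 98989 CPM (-7.40 ± 1.68, adjusted p 0.0422), and was lower by 9.98 on the log2 scale without mouth replicate 1. The call was lost without mouth replicate 3 or any 1 nose library (adjusted p 0.084 to 0.116). PIP, a secreted protein of salivary and nasal glands, had 7034, 67.0 and 9.43 CPM against 2716, 5222 and 4744 CPM and was not called (adjusted p 0.85), or was lower by 6.77 on the log2 scale without mouth replicate 1 (adjusted p 0.0114). LTF, lactoferrin, had 650.0 CPM in mouth replicate 1 and 18.4 and 0.590 in the other 2, against 4.63 to 8.86 CPM at the nose label.

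Epithelial genes followed the same division. Of 20 simple epithelium genes tested, of 22 listed, KRT23 was called lower and 19 were not called, against 10% of all genes called lower. The KRT23 difference was -5.93 ± 1.13, -8.65 without mouth replicate 1, and not called without nose replicate 2 or 3 (adjusted p 0.0585 and 0.068). Their sums were 6268.5, 126.2 and 83.7 CPM against 3557.9, 5318.2 and 4245.2 CPM, so mouth replicate 1 was above all nose-labelled libraries and replicates 2 and 3 below. Without mouth replicate 1, 19 of 20 were called lower and the median moved from -1.22 to -4.91. In that fit 2144 of all 11409 genes tested were called lower. EPCAM, the adhesion protein of simple epithelia, had 95.6, 0.957 and 0.884 CPM against 208.2, 216.4 and 181.0 CPM. Its difference was -2.62 ± 1.87 (adjusted p 0.417) with all libraries and -7.71 without mouth replicate 1 (adjusted p 7.7e-09). Of 11 basal keratinocyte genes tested, of 14 listed, TP63 was called lower (-3.10 ± 0.81), a share near the 10% of all genes. Without mouth replicate 1, 8 of 10 were called lower. TP63 was -5.58 without mouth replicate 1 and -2.48 without mouth replicate 2, and was not called without mouth replicate 3 or any 1 nose library (adjusted p 0.0584 to 0.143). KRT5, their keratin, had 1514, 90.4 and 117.9 CPM against 1150, 651.3 and 513.0 CPM (-0.42 ± 1.24, adjusted p 0.863), and was called at -2.88 without mouth replicate 1 (adjusted p 2.08e-05). The part of epithelium or gland in mouth replicate 1 in the calls over all genes was not tested beyond leaving that library out: 943 genes tested in both fits became called lower without it, and 253 of these were over 5 times higher in it than in either other mouth-labelled library.

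The same was true of SRD5A1, PHEROC, SCGB1D1 and KRT7, which were picked out after their values were seen. SRD5A1, the 5-alpha-reductase that makes dihydrotestosterone, had 3998, 130.4 and 51.0 CPM against 2246, 2462 and 2996 CPM. PHEROC, a pheromone-carrying lipocalin of the pig, had 8892, 58.2 and 33.3 CPM against 13955, 31143 and 31496 CPM. SCGB1D1, a secretoglobin, had 5269, 79.8 and 33.9 CPM against 21146, 42217 and 35843 CPM. KRT7, a keratin of ducts and glands, had 1841, 7.85 and 3.83 CPM against 726.6, 1172 and 1000.4 CPM. None of the 4 was called with all 6 libraries (adjusted p from 0.279 to 0.889), and without mouth replicate 1 the log2 differences were -4.82, -9.12, -9.18 and -7.33.

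**Figure D5:**
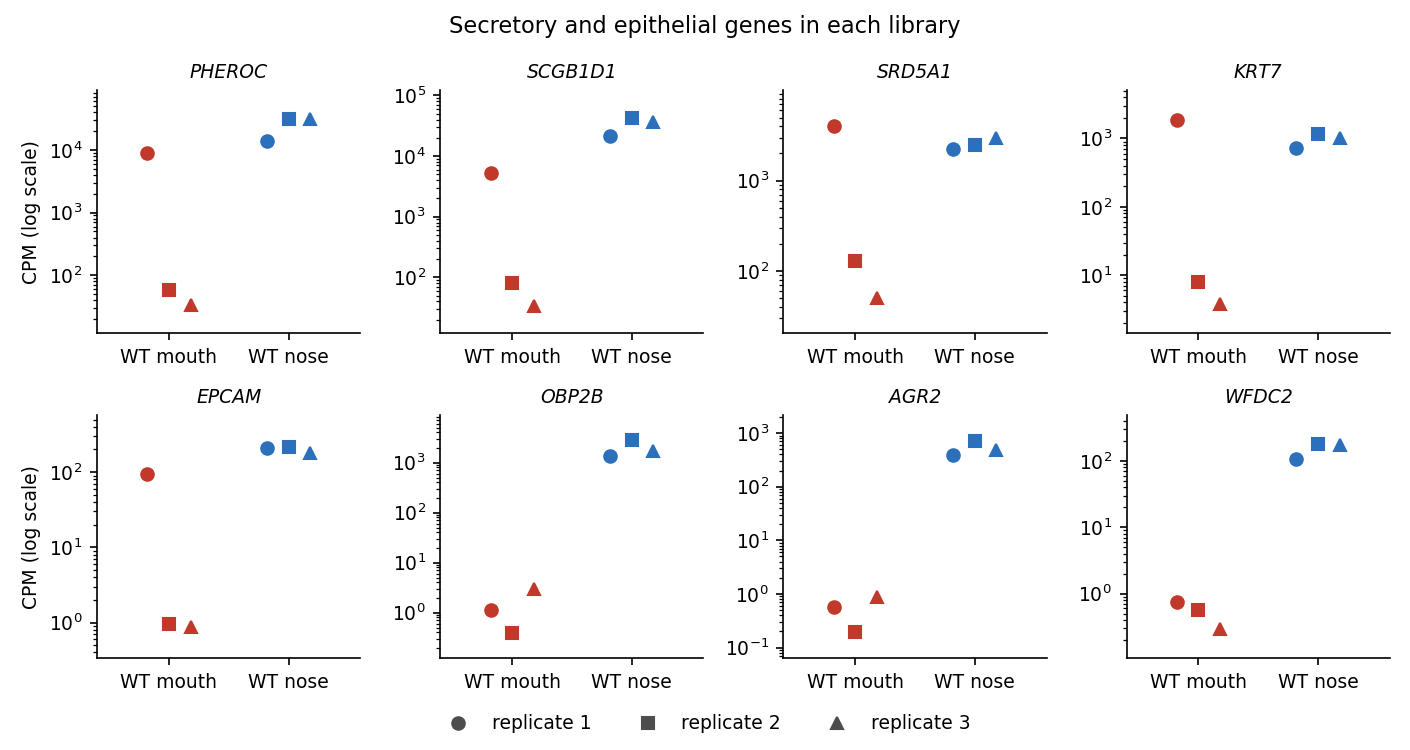
Level of 8 secretory and epithelial genes in each of the 6 WT libraries, in CPM on a log scale. PHEROC, SCGB1D1, SRD5A1, KRT7 and EPCAM are far higher in mouth replicate 1 (circle) than in replicates 2 and 3, while OBP2B, AGR2 and WFDC2 are low in all 3 mouth-labelled libraries.

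Markers of other cell types were examined as well, against 20.5% of all tested genes called. Of 6 lymphatic endothelial genes tested, of 8 listed, 3 were higher (median 2.23): CCL21, the lymphatic chemokine, had 61.6, 59.5 and 58.4 CPM against 2.22, 18.1 and 9.04 CPM (2.41 ± 0.43), LYVE1 differed by 2.75 ± 0.52 and MMRN1 by 2.79 ± 0.47. Without nose replicate 2 these were 3.10, 3.77 and 3.59, and MMRN1 was 2.20 without nose replicate 3. Of 17 blood endothelial genes 2 were called, ESAM (1.86 ± 0.39) and CLDN5 (1.30 ± 0.28), a smaller share than the 20.5% of all genes, and 6 of 17 were higher without mouth replicate 1. Of 13 macrophage, 8 Schwann cell and 5 proliferation genes tested, 0 were called by edgeR, while 2, 1 and 1 had an unadjusted p under 0.05. DESeq2 also called 0 in each list, and limma-voom called 1, 2 and 1. Without mouth replicate 1, edgeR called 1 macrophage and 2 Schwann cell genes higher. Among 11 adipocyte genes, CD36 (-2.47 ± 0.35) and PNPLA2 (-1.40 ± 0.26) were lower and CIDEA was higher (2.34 ± 0.45); without mouth replicate 1, 7 were lower. KIT, a receptor of mast cells and melanocytes, had 1.70, 1.72 and 0.590 CPM against 42.1, 29.9 and 28.1 CPM (-4.49 ± 0.40). It was the only one called of 6 tested mast cell and neutrophil genes. That list's sum averaged 116.1 ± 61.6 CPM (SD) at the mouth label and 118.0 ± 5.41 CPM at the nose label. Of 2 melanocyte genes tested, 0 were called, with mean sums of 18.8 and 20.2 CPM. Of 16 stress and immediate early genes 4 were called, a share near that of all genes. The chaperone partner BAG3 (-2.12 ± 0.27) and FOS (-2.82 ± 0.59) were lower, and FOSL2 (1.39 ± 0.30) and ATF3 (1.49 ± 0.40) were higher. ATF3 was not called without mouth replicate 2 or 3 or nose replicate 2 or 3 (adjusted p 0.0543 to 0.122). Of 17 interferon response genes 2 were called, IFIT1 (2.04 ± 0.54) and MX1 (1.39 ± 0.37), again a smaller share than the 20.5% of all genes. IFIT1 was not called without mouth replicate 2 or nose replicate 2 (adjusted p 0.0653 and 0.109) and was 3.36 without nose replicate 3. MX1 was not called without mouth replicate 2 or nose replicate 2 or 3 (adjusted p 0.0943 to 0.107).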

How the data were processed

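Per the submitters' processing notes, reads were processed with fastp, HISAT2 2.1.0 and HTSeq 0.11.2. The labels' protocols give RNAlater storage, TRIzol extraction and a VAHTS mRNA-seq V3 library kit. The deposited table holds the authors' raw count of reads per gene and library. With the build, annotation and strand setting not given in the sources used here, coordinates are not printed, antisense partners cannot be told apart, and near-identical copies are uncertain. Of 27339 symbols, 26838 matched RefSeq (Sscrofa11.1, names only).

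Counts of the 6 WT libraries were filtered with edgeR's default (minimum count 10, minimum total 15), which kept at least 98.66% of each library's counts, and scaled by TMM. They were tested in R 4.3.3 with the robust quasi-likelihood test of edgeR 4.0.16, a mean per label and no covariate (biological coefficient of variation 35.3%). Benjamini-Hochberg adjustment ran over all tested genes. SE is the size of the log2 difference over the root of its F statistic. Fitted differences used edgeR's default prior count, and a prior count of 2 entered only the log CPM used for correlations. The DIK comparison was fitted on 12 libraries. The steps were checked on simulated counts.

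The comparison and the 47 gene lists (833 genes, 782 in the table, 468 tested) were chosen with earlier results of these data known. The naming rule took the 15 largest called differences in each direction (symbol, mean of 10 CPM or more in the higher group, no overlap), up to 4 called members per list, HOX genes and defining markers, 144 genes in all. Which of these the text gives, and other list members, was chosen after their values were seen. Leaving out each DIK library for the tumour comparison was added after seeing the data. Alternatives were other scalings, filters, tools (DESeq2 1.42.0, limma-voom from limma 3.58.1), thresholds, libraries in the fit, the replicate block and each library left out. Some genes of these lists count in the totals but are not reported here.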

Additional observations from a re-analysis of the deposited data

Results flagged for a closer look

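Between DIK and WT, the mouth-minus-nose difference differed for 1560 of 12510 genes by the interaction test of edgeR at an adjusted p under 0.05. The genes below were flagged because their own interaction passed that threshold. Given as DIK minus WT on the log2 scale, the values were 3.45 for TBX3, -2.63 for MEIS1, -5.09 for TAGLN, -4.95 for MYL9, -4.53 for POSTN, -3.84 for LOX, -5.22 for TNC and 5.09 for TTN. The DIK libraries are tumours of 1 animal, so genotype, tumour and animal cannot be told apart in these values. Groups of 3 libraries were not screened for single outlying values.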

How the results depend on the processing

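Against 1199 higher and 1149 lower genes with all 6 libraries, an adjusted p under 0.01 left 595 higher and 705 lower, and a test for at least a 2-fold change (glmTreat) 449 and 580. Library size alone gave 2088 higher genes, and limma-voom with quality weights 2143 lower. Leaving out 1 library gave 687 to 1756 higher and 724 to 2144 lower genes. Leaving out mouth replicate 1 and nose replicate 1 together, chosen after seeing the data, gave 2065 lower. For the DIK-WT difference, 665 genes passed 0.01, and leaving out 1 library gave 1048 to 2838. Same-numbered mouth and nose libraries did not deviate together (correlations 0.026, 0.019 and 0.221), so the numbers were not taken to pair the samples. With the replicate block 1355 higher, 1312 lower and 1592 interaction genes were called. Over the alternatives, 2210 of 2333 values of named genes kept their side of the threshold, 118 lost a call and 5 gained one. No value changed direction where the gene was called in the main or the alternative fit. Changes of direction among values not called in both fits were not counted. The side was kept under every alternative for 99 of 124 genes. The naming rule favoured genes with large differences or low adjusted p-values in the main fit, so these shares do not describe other genes. The depth of nose replicate 1 limits what its zeros can show. With 3 libraries a group and replicate 1 of each less like the other 2, the counts of calls depend on which libraries enter. Genes at 0 in a group give lower bounds only.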

Other observations

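The genes below were picked out singly after their values were seen, so they say nothing of how other genes of like function behaved. FLNA, the actin crosslinker filamin A, had 2990, 6790 and 6045 CPM against 130.7, 125.5 and 112.7 CPM in the nose-labelled libraries (5.42 ± 0.39, SE, log2; edgeR adjusted p 6.69e-06). ITGA5, the fibronectin receptor subunit, was higher by 4.94 ± 0.44, VCL, vinculin of cell-matrix contacts, by 3.68 ± 0.40, and DSTN, which severs actin filaments, by 3.63 ± 0.33. PPP1R12A, the targeting subunit of myosin phosphatase, was higher by 3.74 ± 0.41, and GJA1, a gap junction protein, by 4.17 ± 0.41. SHOX2, a limb and heart homeobox gene, was higher by 4.43 ± 0.53.

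Other genes picked in this way were lower in the mouth-labelled libraries. SMYD1, a myosin-folding methyltransferase, differed by -7.34 ± 0.50 and TRIM63, a ubiquitin ligase of muscle wasting, by -5.92 ± 0.41. RPL3L, the striated muscle form of a ribosomal protein, had 1.70, 1.15 and 2.06 CPM against 436.4, 432.0 and 320.7 CPM (-7.91 ± 0.38). NOS1, the neuronal nitric oxide synthase found at the muscle membrane, differed by -4.35 ± 0.33. ATP6V1B1, a proton pump subunit, had 0.754, 0.766 and 0.884 CPM against 66.5, 69.1 and 63.3 CPM (-6.32 ± 0.33). KCNE3 and KCNN4, subunits of potassium channels, differed by -6.39 ± 0.49 and -6.87 ± 0.58, and CLIC6, a chloride channel family member, by -8.44 ± 0.58.

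The plasma protein gene HPX had 91.2, 106.1 and 5.01 CPM in the mouth-labelled libraries against 0, 0 and 1.0 CPM, and its call (adjusted p 0.0482) was kept in 1 of 6 fits that each left out a library. HBB, the haemoglobin beta chain, had 13.9, 39.4 and 95.5 CPM against 4.43, 2.53 and 2.26 CPM (4.23 ± 0.82, adjusted p 0.00924). The HBB call was lost without nose replicate 2 (adjusted p 0.0632) or nose replicate 3 (adjusted p 0.0709), and the difference was 3.39 without mouth replicate 3.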
